A study of Rattus norvegicus with 32 samples.

Results

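Matrix metalloproteinases (MMPs) and their tissue inhibitors (TIMPs) were followed in RNA of rat liver sinusoidal endothelial cells (LSECs), the fenestrated cells that line the liver sinusoids. The members were the genes with the symbols Mmp2, Mmp3, Mmp9, Mmp10, Mmp12, Mmp13, Mmp14, Timp1, Timp2 and Timp3, 10 of the 32623 genes listed for each library. Their levels were compared over the stages of liver injury by carbon tetrachloride (CCl4) and between the groups of a thioacetamide (TAA) experiment.

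The CCl4 model used male Wistar Han rats that inhaled the toxicant, with phenobarbital added to the drinking water of the model. It comprised 6 healthy rats, 5 rats after 2 weeks (acute injury), 5 rats after 6 weeks (fibrosis) and 6 rats with cirrhosis, whose own labels say that they were treated with CCl4 and whose duration of 12 to 14 weeks comes from the description of the series. Whether the healthy rats received phenobarbital is not given in the sources used here. In the TAA experiment 1 group of 5 libraries is labelled control and another group of 5 is labelled TAA control. TAA was injected intraperitoneally and controls were given saline, but the labels do not settle which of these groups received it, so they are called here by their labels and no direction of TAA is drawn from them. The sample labels give Wistar Han as the strain of all libraries, while the description of the series gives Sprague-Dawley for the TAA experiment. LSECs were isolated by a density gradient of iodixanol after digestion of the liver, so that other liver cells can be carried along. Each library is taken as 1 rat, and p-values measure the spread between these libraries.

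MMPs are secreted or membrane-bound proteases that need zinc and cleave extracellular matrix and many signalling proteins. They are made as inactive precursors, and TIMPs bind and block the active enzymes. In the injured liver, scar tissue builds up when more matrix is laid down than is removed, and Timp1 in particular is known as a product of activated stellate cells, the matrix-producing cells beside the sinusoid. Mmp13 is the main interstitial collagenase of rodents. Mmp3 and Mmp10 are the stromelysins, Mmp12 is the macrophage elastase, Mmp2 and Mmp9 are the gelatinases, and Mmp14 is a membrane-anchored enzyme that activates the Mmp2 precursor in a complex with Timp2.

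Values are counts per 1000000 (CPM), for which expected counts were divided by the size of the library after TMM scaling, a correction for differences in composition. The CCl4 and the TAA libraries were scaled separately. CPM do not take gene length into account, so levels were compared between groups and not between genes. The total per library ranged from 25646531 to 46464289 expected counts over the 32 libraries. A gene was called when limma-voom gave a Benjamini-Hochberg adjusted p under 0.05 and a fold change above 1.5. Where groups are said not to overlap, the share of all genes that separated in this way was not counted.

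The acute and fibrosis libraries stood apart from all others in their cell type markers. The summed level of 9 LSEC markers ranged from 14495 to 28718 CPM in healthy, from 3499 to 4159 CPM in acute, from 2381 to 3351 CPM in fibrosis and from 15445 to 19691 CPM in cirrhotic libraries. Against healthy LSECs, 7 of these 9 markers were called lower in acute injury and 8 in fibrosis. None was absent, and the endothelial cadherin Cdh5 was at a mean of 1294, 1597, 1040 and 1506 CPM in the 4 groups, with no call. Kupffer cell and macrophage markers summed to 283 to 2667 CPM in healthy, 65.9 to 201 CPM in acute, 28.8 to 176 CPM in fibrosis and 676 to 2467 CPM in cirrhotic libraries, and the resident Kupffer cell receptor Timd4 was at 0 in every acute and fibrosis library. Stellate cell and fibroblast markers summed to 285 to 794 CPM in healthy, 1317 to 2133 CPM in acute, 1302 to 1749 CPM in fibrosis and 626 to 1950 CPM in cirrhotic libraries. Of the acute sum, Reln alone made up a mean of 1678 CPM. Of the 9 markers of this list tested in acute injury, 1 was called higher and 5 lower. The part of these markers in the results below was not tested, and a sequencing or isolation batch that followed the stage cannot be told apart from the stage.

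Against healthy LSECs, 9 of the 10 members were called in acute injury, 4 higher and 5 lower, while 35.5% of the 14317 genes tested were called higher and 37.9% lower. In fibrosis 4 members were called higher and 4 lower, against 35.3% and 34.9% of the 14538 genes tested. Of the members called higher at these stages, Mmp3, Mmp10 and Mmp13 passed the filter on low counts only through the acute or fibrosis libraries. Their calls add no support. In cirrhosis 7 members could be tested, 3 were called higher and 0 lower by limma-voom, against 27.1% and 24.7% of 14789 genes, and 1 member, Mmp9, was lower with an unadjusted p under 0.05, with edgeR or with DESeq2. With weights per library only Mmp12 was called higher in cirrhosis and Mmp9 was called lower, so that the split became 1 higher and 1 lower. The members thus moved in a transcriptome of which most genes were called in acute injury and fibrosis, and their number is not a result of its own. Which members rose and which fell is described below by their role.

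**Figure D1:**
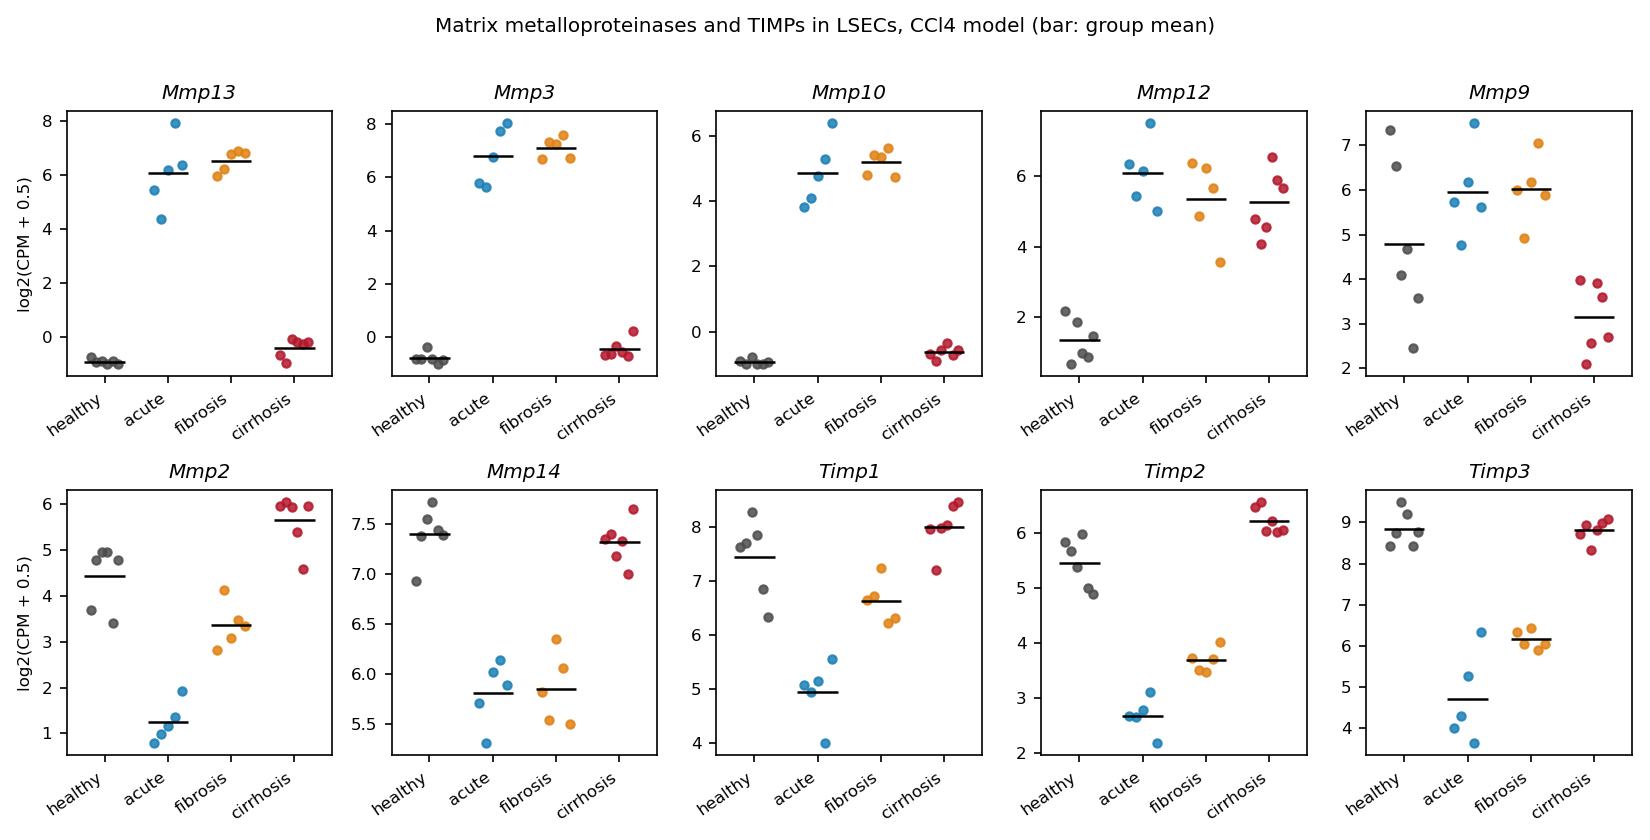
Each panel shows 1 gene, with the level in log2(CPM + 0.5) on the vertical axis, which differs between panels, and the 4 groups of the CCl4 model on the horizontal axis. Points are libraries and bars are group means. Mmp13, Mmp3 and Mmp10 were high in acute and fibrosis libraries and close to 0 in the others, Mmp12 was high in all 3 CCl4 groups, and Mmp2, Mmp14, Timp2 and Timp3 were called lower in acute injury and fibrosis, while Timp1 in fibrosis overlapped the healthy libraries and was not called.

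The genes Mmp13, Mmp12, Mmp3 and Mmp10 lie on rat chromosome 8 in a cluster of 10 Mmp genes with no other protein-coding gene between them. Their order in the RefSeq annotation of the assembly GRCr8 is Mmp13, Mmp12, Mmp1b, Mmp3, Mmp1, Mmp10, Mmp8, Mmp27, Mmp20 and Mmp7. The reads themselves were mapped to the older assembly Rnor_6.0, so only the order and the RefSeq promoter windows are taken from GRCr8. RefSeq windows of 250 bases before to 50 after the gene start were found for 7 of the 10 members. The 4 of the cluster are shown because these genes sit side by side and yet differ in cirrhosis. The capitals mark the letters of an AP-1 motif, TGANTCA, where N is any base. AP-1 is the dimer of Fos and Jun family factors that is known to drive collagenase and stromelysin genes.
Mmp13 (chr8:12782579-12782878, plus strand): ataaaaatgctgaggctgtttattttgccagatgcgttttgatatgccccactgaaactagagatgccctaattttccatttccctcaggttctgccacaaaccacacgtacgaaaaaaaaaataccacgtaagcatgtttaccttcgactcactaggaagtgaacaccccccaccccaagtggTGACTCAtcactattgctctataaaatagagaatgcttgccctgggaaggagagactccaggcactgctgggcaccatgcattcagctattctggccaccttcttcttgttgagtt
Mmp12 (chr8:12866402-12866701, plus strand): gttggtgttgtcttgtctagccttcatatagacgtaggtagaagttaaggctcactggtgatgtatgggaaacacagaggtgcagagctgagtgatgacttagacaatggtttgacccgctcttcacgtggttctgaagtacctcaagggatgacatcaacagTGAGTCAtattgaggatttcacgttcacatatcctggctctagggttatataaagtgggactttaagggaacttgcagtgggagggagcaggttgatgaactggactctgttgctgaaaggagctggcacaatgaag
Mmp3 (chr8:12925031-12925330, plus strand): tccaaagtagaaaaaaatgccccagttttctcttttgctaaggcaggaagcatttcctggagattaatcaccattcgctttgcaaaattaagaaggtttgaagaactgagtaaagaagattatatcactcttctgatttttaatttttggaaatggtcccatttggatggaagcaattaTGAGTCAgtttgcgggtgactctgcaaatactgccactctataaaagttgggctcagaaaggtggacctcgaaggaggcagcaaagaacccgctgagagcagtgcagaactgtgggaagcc
Mmp10 (chr8:12974457-12974756, plus strand): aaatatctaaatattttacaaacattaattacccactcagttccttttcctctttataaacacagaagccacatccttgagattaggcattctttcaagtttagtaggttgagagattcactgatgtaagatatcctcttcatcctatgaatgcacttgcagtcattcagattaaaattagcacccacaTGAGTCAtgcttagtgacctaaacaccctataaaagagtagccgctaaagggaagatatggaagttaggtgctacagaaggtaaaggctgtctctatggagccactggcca

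The motif TGANTCA reads the same on both strands and was present 1 time in each of these 4 windows, at 66 bases before the gene start in Mmp13, 87 in Mmp12, 71 in Mmp3 and 61 in Mmp10. It was found in 7.33% of the 33469 RefSeq windows of the same length. The windows of Timp1, Timp2 and Timp3 held no match. A TATA box motif, TATAAA, searched on both strands, was present in all 4 Mmp windows and in none of the 3 Timp windows, and 14.2% of all windows held it. The motif AGGAAG, read by the Ets factor PEA3 and searched on both strands, was present in the windows of Mmp3, Mmp13 and Timp1 and in 34.5% of all windows. These are matches of letters and do not show binding.

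Mmp13 (ENSRNOG00000008478), the collagenase, went from almost no reads to a high level and back. Healthy libraries held 0 to 3 counts each, with a lowest, median and highest level of 0, 0.035 and 0.1 CPM. Acute libraries were at 43.4, 20.2, 71.0, 239 and 82.6 CPM (replicates 1, 2, 3, 4 and 8) and fibrosis libraries at 62.1, 73.0, 108, 118 and 111 CPM (replicates 12, 13, 15, 16 and 17). Cirrhotic libraries were again at 0.0199, 0.353 and 0.457 CPM (lowest, median and highest). Every acute and fibrosis library lay above every healthy and cirrhotic one, with acute replicate 4 the highest of all. The summed counts were 17890 in acute and 6 in healthy libraries, a ratio of 2842 per effective library size (95% exact interval 1306 to 7746). The ratio was 2768 (1271 to 7544) in fibrosis and 8.1 (3.55 to 22.8) in cirrhosis, where the sum was 72 counts. These intervals cover counting error only and not the spread between rats.

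Mmp3 (ENSRNOG00000032626), a stromelysin that also activates other MMP precursors, followed the same course. Healthy libraries ranged from 0 over a median of 0.0677 to 0.287 CPM. Acute libraries were at 54.5, 49.5, 107, 216 and 261 CPM, and fibrosis libraries at 104, 159, 151, 194 and 105 CPM. Cirrhotic libraries were at 0.111, 0.177 and 0.669 CPM (lowest, median and highest), below every acute and fibrosis library and overlapping the healthy ones. Summed counts were 15 in healthy and 25311 in acute libraries, a ratio of 1608 (95% exact interval 975 to 2874), and the ratio was 1667 (1011 to 2979) in fibrosis. In cirrhosis it was 2.97 (1.68 to 5.6). These intervals too cover counting error only and not the spread between rats. Fitted by limma-voom with no filter on low counts, Mmp3 was not called in cirrhosis (log2 1.52, adjusted p = 0.0589).

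Mmp10 (ENSRNOG00000032832), the other stromelysin, moved like Mmp3. It held 4 counts over all healthy libraries, with a lowest, median and highest level of 0, 0.0129 and 0.0819 CPM. Acute libraries reached 13.7, 16.6, 26.8, 39.0 and 83.5 CPM and fibrosis libraries 27.6, 41.9, 40.3, 48.8 and 26.5 CPM. Cirrhotic libraries fell back to 0.0397, 0.15 and 0.281 CPM (lowest, median and highest). Acute replicate 8 was the highest library for both Mmp10 and Mmp3, whereas acute replicate 4 was the highest for Mmp13. The summed ratio to healthy was 1527 (95% exact interval 596 to 5607) in acute injury, 1622 (633 to 5954) in fibrosis and 6.58 (2.37 to 25.4) in cirrhosis, again with counting error only. Mmp3 and Mmp10 are each less certain than the other members, since their expected counts were not whole in the same 12 of 32 libraries and their fractions added up to whole numbers in all 12 (tolerance 0.015), so that some reads were divided between them. All other members had whole counts in every library. Fitted as 1 gene, their summed counts had a log2 fold change of 10.61 in acute injury and 10.97 in fibrosis, an alternative added after the data were seen.

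Mmp3, Mmp10 and Mmp13 passed the filter on low counts only through the acute and fibrosis libraries, so that a difference from healthy or cirrhotic libraries was bound to appear and the calls of these 3 genes add no support. Fitted log2 fold changes against healthy were 10.67 (SE 1.15), 10.48 (SE 1.01) and 9.82 (SE 0.901) for Mmp13, Mmp3 and Mmp10 in acute injury, and these depend on the small count that limma-voom adds to zeros. Between fibrosis and acute injury none of the 3 was called, with log2 differences of 0.55 (SE 0.533), 0.41 (SE 0.454) and 0.42 (SE 0.42). Acute libraries spread more widely than fibrosis libraries, with an SD of 86.2 against 25.2 CPM for Mmp13. With weights per library, Mmp3 and Mmp10 were called higher in fibrosis than in acute injury (log2 1.09 and 1.03, adjusted p = 0.0305 and 0.0225). In bulk RNA, fewer cells that express a gene and less of its RNA per cell cannot be told apart.

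**Figure D2:**
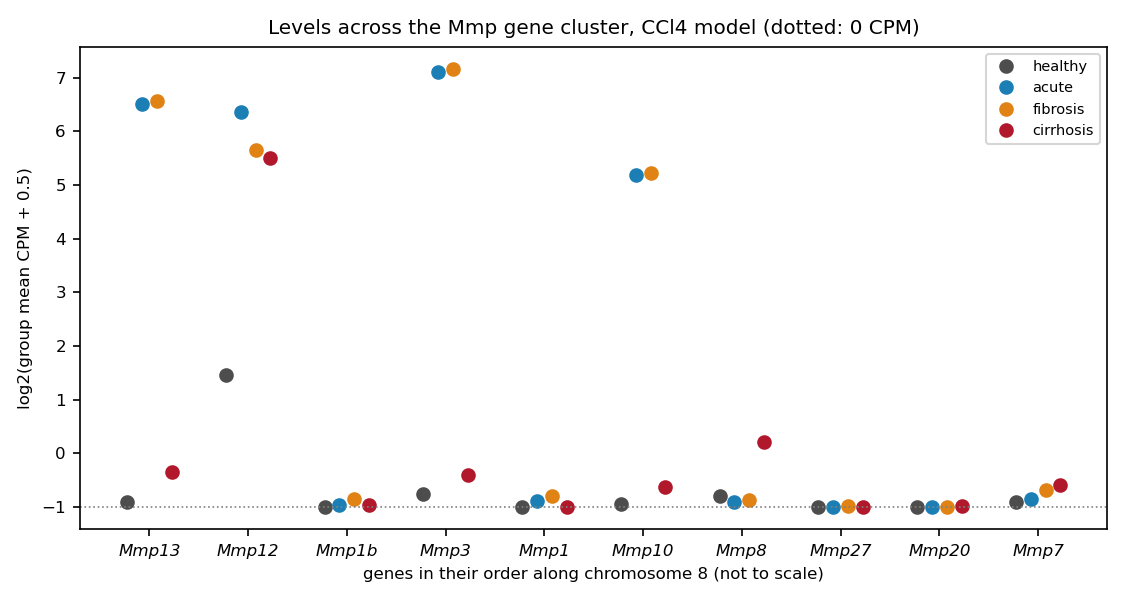
The 10 Mmp genes of chromosome 8 are shown in their order along the chromosome on the horizontal axis, not to scale, with log2(group mean CPM + 0.5) on the vertical axis and 1 point for each group of the CCl4 model. The dotted line is 0 CPM. Mmp13, Mmp12, Mmp3 and Mmp10 reached 35.9 to 138 CPM in acute injury, while the genes between and beside them stayed under 1 CPM in every group.

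The genes of the cluster that are no members stayed near 0. Mmp1, which lies between Mmp3 and Mmp10, had means of 0, 0.04, 0.0758 and 0.00413 CPM in healthy, acute, fibrosis and cirrhotic LSECs. Mmp7 did not exceed a mean of 0.165 CPM, and Mmp20 and Mmp27 did not exceed 0.0105 CPM in any of the 4 groups. Mmp1b, named here after its values were seen, did not exceed 0.0528 CPM. Mmp8, the neutrophil collagenase, was the exception in cirrhosis, with a mean of 0.667 CPM against 0.0776 CPM in healthy LSECs. Healthy libraries held 0 to 8 counts of Mmp8 (13 in all) and cirrhotic libraries 12 to 88, so that Mmp8 passed the filter only through the cirrhotic libraries and its call (log2 fold change 3.50) adds no support. Neutrophil markers were sparse in these libraries, with sums of 2.77 to 14.6 CPM in cirrhosis and 3.85 to 45.6 CPM in healthy rats. Of the 7 neutrophil markers 4 were tested in cirrhosis against healthy, and 3 were called higher and 0 lower. The mean of S100a8 was 0.351 CPM in healthy rats and 1.42 CPM in cirrhosis, and that of S100a9 was 0.536 and 2.59 CPM. The other neutrophil markers together had a lower mean in cirrhosis, since the mean of the whole sum was 15 CPM in healthy rats and 9.56 CPM in cirrhosis. Healthy replicate 1 alone was at 45.6 CPM, and the medians of the sum were 11.2 CPM in healthy rats and 10.4 CPM in cirrhosis.

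Mmp12 (ENSRNOG00000030187), the macrophage elastase, was higher at every stage. Healthy libraries ranged from 1.1 over a median of 1.89 to 4.05 CPM. Acute libraries were at 81.5, 43.1, 71.2, 182 and 32 CPM and fibrosis libraries at 82.1, 28.9, 75.3, 50.3 and 11.5 CPM. Cirrhotic libraries ranged from 16.5 over a median of 39.0 to 94.1 CPM. No library of an injured liver overlapped the healthy ones, and the 3 injured groups overlapped each other. Its log2 fold change against healthy was 5.11 (SE 0.548, adjusted p = 3.83e-06) in acute injury, 4.38 (SE 0.629, adjusted p = 5.3e-05) in fibrosis and 4.24 (SE 0.528, adjusted p = 0.000109) in cirrhosis. It did not pass the test between fibrosis and acute injury (log2 -0.71, SE 0.589), between cirrhosis and fibrosis (-0.08, SE 0.56) or between cirrhosis and acute injury (-0.84, SE 0.494, adjusted p = 0.135). Of the 4 members in the chromosome 8 cluster, Mmp12 alone had a mean above 1 CPM in cirrhosis.

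The markers of scar-associated macrophages, a list of Spp1, Gpnmb, Trem2 and Cd9, were at the same end of their range as Mmp12 in some libraries and not in others. Their sum was highest in acute replicate 4 (526 CPM) and lowest in acute replicate 8 (139 CPM), the libraries with the highest and lowest Mmp12 of that group. In fibrosis replicate 17 had the lowest sum (86.2 CPM) and the lowest Mmp12, and in cirrhosis replicate 4 had the highest sum (310 CPM) and the highest Mmp12. In contrast, the highest sum of the fibrosis libraries was in replicate 15 (440 CPM) while Mmp12 was highest in replicate 12, and the lowest sum of the cirrhotic ones was in replicate 3 (102 CPM) while Mmp12 was lowest in replicate 2. Acute replicate 2 had the second highest sum of its group (431 CPM) and the second lowest Mmp12. Healthy libraries had sums of 28.3 to 161 CPM. Healthy replicate 1 had the highest sum and the highest Mmp12 (4.05 CPM) of its group, whereas healthy replicate 2, with the lowest Mmp12, had the second highest sum (151 CPM). The list did not move as a whole, since in acute injury Spp1 (osteopontin, means of 0.38 CPM in healthy and 79.5 CPM in acute LSECs) and Gpnmb (log2 2.83) were called higher, Cd9 (-2.88) was called lower, and Trem2 was at means of 0.284 CPM in acute and 0.272 CPM in healthy LSECs. Of the 8 Kupffer cell and macrophage markers tested, 7 were called lower in acute injury and all 8 in fibrosis. The part of macrophages in Mmp12 was not tested.

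Mmp9 (ENSRNOG00000017539), the gelatinase known from neutrophils and other leukocytes, was spread widely among healthy rats, with an SD of 62.5 CPM around a mean of 52.1 CPM. Healthy libraries ranged from 4.97 over a median of 20.9 to 162 CPM, with replicates 1 and 2 at 162 and 92.2 CPM and the other 4 at 25.2 CPM or less. Acute libraries were at 52.9, 26.9, 71.5, 180 and 48.6 CPM and fibrosis libraries at 63.9, 29.9, 72.1, 132 and 59.1 CPM, so both groups lay above the lower 4 healthy libraries and overlapped the range of the upper 2. Cirrhotic libraries ranged from 3.77 over a median of 8.83 to 15.3 CPM. Against healthy, the log2 fold changes of 1.26 (SE 0.801, adjusted p = 0.168) in acute injury, 1.34 (SE 0.777, adjusted p = 0.136) in fibrosis and -1.68 (SE 0.777, adjusted p = 0.0795) in cirrhosis were not called. Without healthy replicate 1 Mmp9 was called higher in acute injury (1.86, adjusted p = 0.0303) and fibrosis (1.87, adjusted p = 0.024), and without healthy replicate 5 it was called lower in cirrhosis (-2.17, adjusted p = 0.0148). edgeR's quasi-likelihood test (-2.48, adjusted p = 0.0141) and DESeq2 (-2.48, adjusted p = 0.000683) also called it lower in cirrhosis, as did limma-voom with weights per library (-2.10, adjusted p = 0.00654) and in 1 fit over the 4 CCl4 groups (-1.69, adjusted p = 0.0451). Healthy replicates 1 and 2 also had the highest sums of T, B and NK cell markers, 223 and 151 CPM against 16.5 to 55.1 CPM in the other healthy libraries, and replicate 1 had the highest neutrophil sum (45.6 CPM). In acute and fibrosis libraries, where Mmp9 was at 26.9 CPM or more, the neutrophil sums were 0.299 to 2.81 CPM. The T, B and NK cell sums were 2.56 to 7.71 CPM in acute and 4.02 to 44.1 CPM in fibrosis libraries. The part of any of these cells in Mmp9 was not tested.

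Between the injured groups Mmp9 differed more clearly. Cirrhotic libraries lay below every acute and fibrosis library, with log2 differences of -2.90 (SE 0.52, adjusted p = 0.000209) from acute injury and -2.96 (SE 0.436, adjusted p = 5.23e-05) from fibrosis. Fibrosis and acute injury did not differ by more than their spread (0.12, SE 0.496). The matrix protease Mmp9 thus shared its fall at cirrhosis with Mmp3, Mmp10 and Mmp13 but was never close to 0 in the CCl4 model.

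Mmp2 (ENSRNOG00000016695), the other gelatinase, ran the opposite way and changed sign along the course. Its healthy libraries ranged from 10.2 over a median of 27.2 to 30.4 CPM. After acute injury it was at 1.23, 1.47, 1.72, 2.05 and 3.28 CPM, all below the healthy ones, and fibrosis libraries at 6.54, 17, 7.91, 10.6 and 9.66 CPM, above every acute library and overlapping the lower healthy ones. Cirrhotic libraries ranged from 23.7 over a median of 61.3 to 65.7 CPM, with only replicate 5 inside the healthy range. The log2 fold change against healthy was -3.48 (SE 0.433, adjusted p = 1.34e-05) in acute injury, -1.04 (SE 0.36, adjusted p = 0.0199) in fibrosis and 1.25 (SE 0.34, adjusted p = 0.00743) in cirrhosis. Each step between successive groups was called, 2.50 (SE 0.335) from acute injury to fibrosis and 2.34 (SE 0.334) from fibrosis to cirrhosis. The fall in fibrosis was not called without TMM scaling (-0.64, adjusted p = 0.125) or without fibrosis replicate 12 (-0.87, adjusted p = 0.0577), and the rise in cirrhosis not with weights per library (0.92, adjusted p = 0.0537).

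Mmp2 is also a product of stellate cells, and the stellate cell and fibroblast markers other than Reln were measured in the same libraries. The receptor Pdgfrb was at means of 7.25, 1.06, 8.06 and 41.1 CPM in healthy, acute, fibrosis and cirrhotic LSECs, with a log2 difference of -0.01 between fibrosis and healthy. The whole list, with Reln, was split in fibrosis against healthy, where 9 markers were tested, 3 were called higher and 3 lower. In cirrhosis 8 of the 10 markers tested were called higher, and Reln (log2 0.29) and Des (0.47) were not called. Cirrhotic replicate 5, the lowest in Mmp2, also had the lowest stellate sum of its group (626 CPM), and the part of stellate cells in Mmp2 was not tested.

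**Figure D3:**
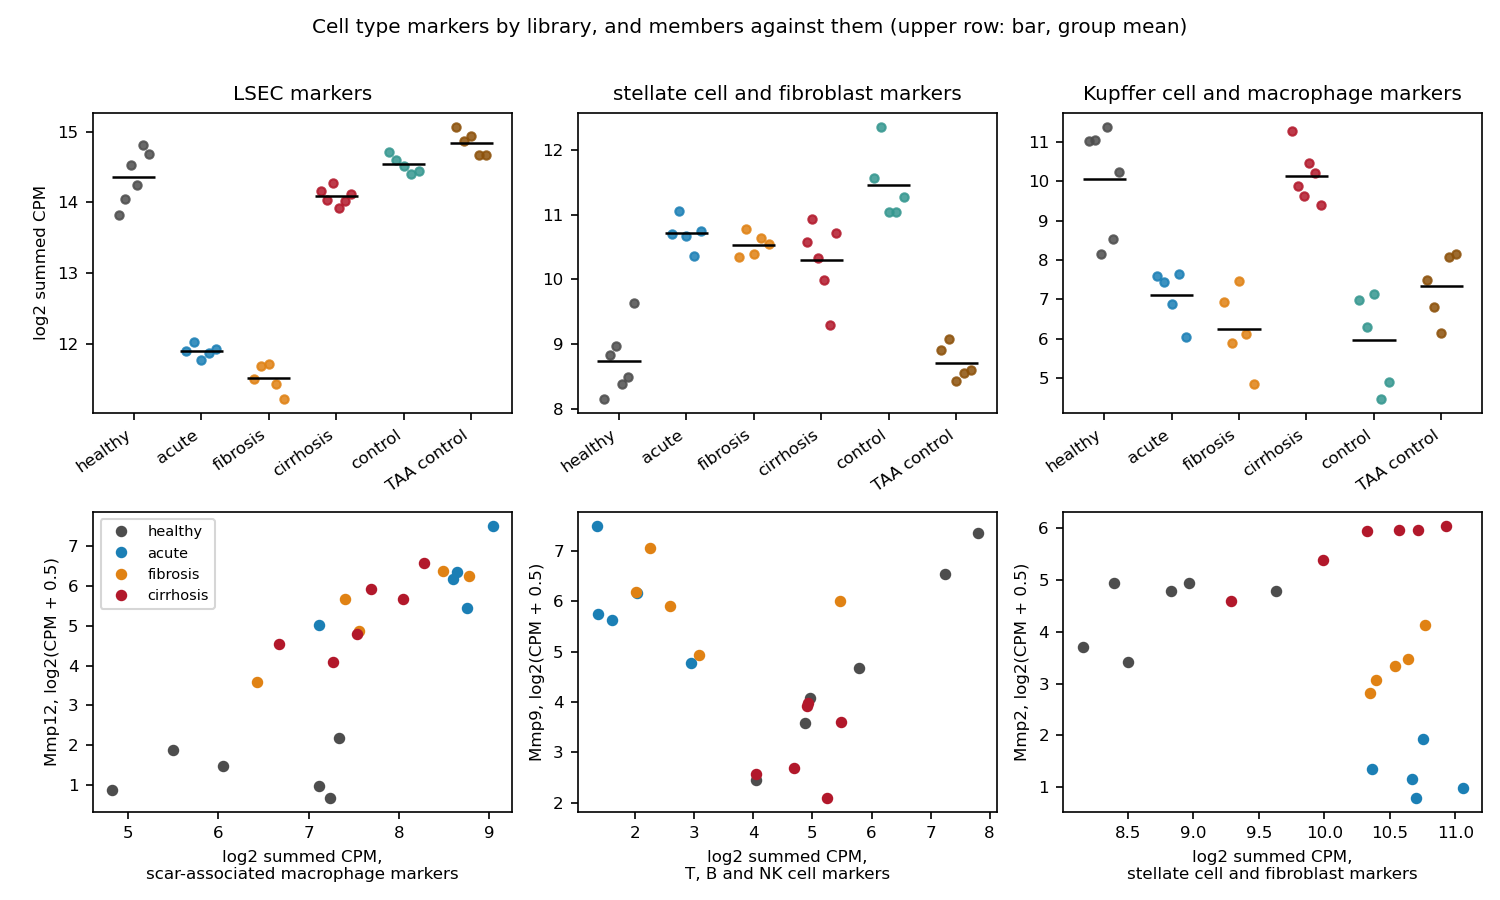
The upper row shows the summed CPM of 3 marker lists on a log2 axis in every library of the 6 groups, with bars for the mean of the log2 values. The lower row sets Mmp12, Mmp9 and Mmp2, each in log2(CPM + 0.5), against the summed CPM of 1 marker list on a log2 axis for the 22 libraries of the CCl4 model, coloured by group. LSEC markers were lowest in acute and fibrosis libraries, and acute replicate 4 had the highest Mmp12 and the highest sum of scar-associated macrophage markers, while other libraries with high sums had less Mmp12 than cirrhotic replicate 4.

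Mmp14 (ENSRNOG00000010947), the membrane-type activator of Mmp2, fell and returned to the healthy level. In healthy libraries it ranged from 121 over a median of 171 to 210 CPM. At the acute stage libraries were at 51.9, 39.2, 64.5, 70.3 and 58.9 CPM and fibrosis libraries at 56.0, 46, 81.4, 66.5 and 44.7 CPM, all below the healthy range. Cirrhotic libraries ranged from 128 over a median of 161 to 200 CPM, within the healthy range. The log2 fold change was -1.56 (SE 0.18, adjusted p = 7.21e-06) in acute injury, -1.49 (SE 0.184, adjusted p = 1.52e-05) in fibrosis and -0.08 (SE 0.153, adjusted p = 0.683) in cirrhosis, where its sign turned without TMM scaling (0.27). Acute injury and fibrosis did not differ by more than their spread (0.12, SE 0.198), and cirrhosis was higher than either by 1.51 (SE 0.156) and 1.47 (SE 0.162).

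**Figure D4:**
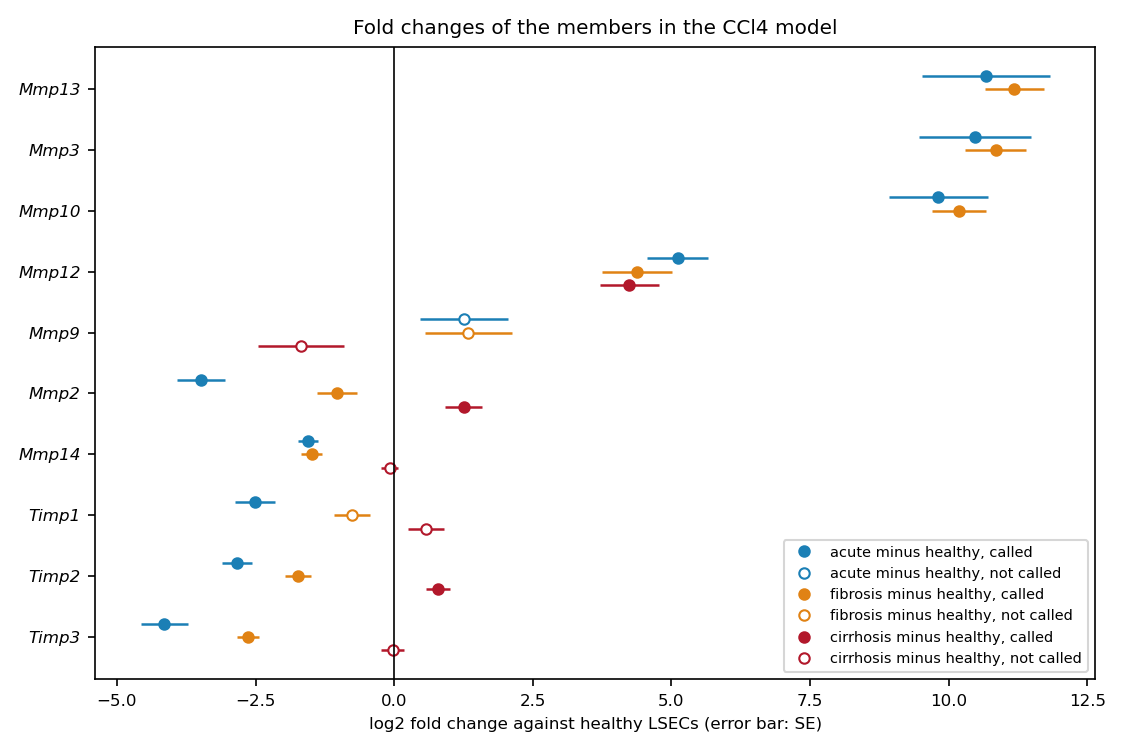
Log2 fold changes against healthy LSECs (horizontal axis) of the members (vertical axis) in acute injury, fibrosis and cirrhosis, with bars for the SE. Filled points were called and open points were not. Mmp13, Mmp3 and Mmp10 have no cirrhosis point because they were not tested there, and Mmp2 and Timp2 lie left of 0 in acute injury and fibrosis and right of 0 in cirrhosis.

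Timp3 (ENSRNOG00000004303), a TIMP that binds to the matrix and also blocks ADAM proteases, fell most among the inhibitors. In healthy libraries Timp3 ranged from 344 over a median of 433 to 721 CPM. In acute injury libraries were at 15.7, 19.2, 38.3, 12.0 and 80.6 CPM and fibrosis libraries at 80.9, 66.3, 85.8, 59.7 and 65.5 CPM, and cirrhotic libraries ranged from 320 over a median of 471 to 543 CPM. All acute and fibrosis libraries lay below all healthy and cirrhotic libraries, and acute replicate 8 reached the level of fibrosis. The log2 fold change was -4.15 (SE 0.424, adjusted p = 2.52e-06) in acute injury, -2.63 (SE 0.201, adjusted p = 2.91e-07) in fibrosis and -0.03 (SE 0.207, adjusted p = 0.918) in cirrhosis, where its sign turned without TMM scaling (0.32). The rise from acute injury to fibrosis, 1.60 (SE 0.4, adjusted p = 0.0203), was not called by edgeR's quasi-likelihood test (1.19, adjusted p = 0.0931), by DESeq2 (1.17, adjusted p = 0.0729), or without acute replicate 1 (1.43, adjusted p = 0.0608) or 2 (1.502, adjusted p = 0.0551).

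Timp2 (ENSRNOG00000003148), which both inhibits MMPs and takes part in the activation of Mmp2, fell and then exceeded the healthy level. Healthy libraries ranged from 29.4 over a median of 45.6 to 63.0 CPM. Acute libraries were at 5.88, 5.78, 6.36, 8.09 and 4.04 CPM, fibrosis libraries at 12.8, 10.8, 10.6, 12.6 and 15.8 CPM, and cirrhotic libraries ranged from 64.3 over a median of 70.0 to 93.8 CPM. The 4 groups did not overlap, in the order acute, fibrosis, healthy and cirrhosis. The log2 fold change was -2.83 (SE 0.271, adjusted p = 1.47e-06) in acute injury, -1.74 (SE 0.235, adjusted p = 3.23e-05) in fibrosis and 0.78 (SE 0.216, adjusted p = 0.00806) in cirrhosis. The rise in cirrhosis fell under the fold threshold with weights per library (0.43, adjusted p = 0.0347).

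Timp1 (ENSRNOG00000010208), the inducible TIMP, was called lower in acute injury alone of the 3 stages. Healthy libraries ranged from 80.2 over a median of 203 to 312 CPM, acute libraries were at 33.2, 30.0, 34.8, 15.4 and 46.3 CPM, and fibrosis libraries at 100, 105, 151, 74.0 and 78.7 CPM. Cirrhotic libraries ranged from 147 over a median of 259 to 353 CPM. Acute libraries lay below all others, while fibrosis and cirrhotic libraries overlapped the healthy ones and, by replicate 15 of fibrosis and replicate 2 of cirrhosis, each other. The log2 fold change was -2.51 (SE 0.361, adjusted p = 4.58e-05) in acute injury, -0.76 (SE 0.323, adjusted p = 0.0504) in fibrosis and 0.58 (SE 0.321, adjusted p = 0.14) in cirrhosis. The value in fibrosis lay at the threshold and was called by edgeR's quasi-likelihood test (-0.84, adjusted p = 0.0303), by DESeq2 (-0.81, adjusted p = 0.0223) and without healthy replicate 5 (-0.89), healthy replicate 6 (-1.03) or fibrosis replicate 15 (-0.90). It was also called by limma-voom with weights per library (-1.07, adjusted p = 0.00163), in 1 fit over the 4 CCl4 groups (-0.82, adjusted p = 0.021), with a filter on CPM above 1 (-0.76, adjusted p = 0.048) and with upper-quartile scaling (-0.76, adjusted p = 0.0467). Without TMM scaling Timp1 was called higher in cirrhosis (0.92, adjusted p = 0.0111).

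Between fibrosis and acute injury 4 members were called higher, Mmp2, Timp1 (1.82, SE 0.277), Timp2 (1.14, SE 0.178) and Timp3, and 0 lower, by limma-voom, against 10.2% and 0.732% of the 13931 genes tested. By edgeR and by DESeq2 3 members were called higher, without Timp3, and 0 lower, and 0 were lower with an unadjusted p under 0.05. Between cirrhosis and fibrosis 5 members were called higher and 4 lower, against 34.3% and 29.5% of the 15186 genes tested. The members higher in cirrhosis were Mmp2, Mmp14, Timp1 (1.39, SE 0.229), Timp2 (2.57, SE 0.145) and Timp3 (2.66, SE 0.139), and those lower were Mmp3, Mmp9, Mmp10 and Mmp13. Between cirrhosis and acute injury the counts were again 5 higher and 4 lower, against 37.5% and 31.8% of the 15005 genes tested. These comparisons share libraries with each other and with those against healthy LSECs, so they are not separate evidence. In both comparisons with cirrhosis, Mmp3, Mmp10 and Mmp13 passed the filter on low counts only through the earlier stage, so their calls add no support.

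Within a library, a ratio of 2 members does not depend on the scaling between libraries. The ratio of Mmp14 to Timp2 in CPM was 2.13 to 5.68 in healthy libraries (median 3.95), 6.78 to 14.6 in acute libraries (median 8.83), 2.83 to 7.68 in fibrosis (median 4.38) and 1.79 to 3.04 in cirrhosis (median 2.07). Acute libraries lay above all healthy and cirrhotic ones. The ratio of Mmp2 to Timp2 overlapped between all 4 groups, with medians of 0.512, 0.254, 0.746 and 0.703. No test was made of these ratios, which were chosen with the values of their members known.

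Of the other MMPs and TIMPs, 14 were listed and 7 could be tested in acute injury, where 6 were called lower and Mmp16 was not called (log2 -0.93). These falls included the membrane-anchored Mmp17 (from a mean of 151 to 5.35 CPM) and Mmp15 (from 42.9 to 2.87 CPM), and Mmp28 (from 8.92 to 0.115 CPM). Acute libraries held 1 to 6 counts of Mmp23 and 3 to 6 of Mmp28. Both genes passed the filter on low counts only through the healthy libraries, so their calls add no support. In fibrosis 6 of 7 were again called lower, and Mmp16 was at 0.24. The same limit holds there for Mmp23 (6 to 22 counts in fibrosis libraries) and Mmp28 (7 to 19 counts). In cirrhosis 3 of 8 were called higher, Mmp8 with the limit given above, Mmp16 (log2 1.87) and Mmp23 (1.74), and 2 lower, Mmp15 (-1.66) and Mmp17 (-1.57). The median log2 fold change of the list was -3.54 in acute injury, beside -0.09 over all genes tested.

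The list of 9 activators of MMPs held genes of the plasminogen system, which activates several MMP precursors, beside proprotein convertases, Klkb1 and Mme, and of the 8 tested in acute injury 6 were called lower and 1 higher. The gene called higher was the convertase Pcsk5 (log2 0.76), and the urokinase receptor Plaur was not called (means of 187 CPM in healthy and 185 CPM in acute LSECs). The largest falls were in Plg (plasminogen, log2 -4.94) and Klkb1 (plasma prekallikrein, -4.43), known as hepatocyte products. Klkb1 held 3 to 19 counts in acute libraries and passed the filter only through the healthy ones, so its call adds no support. All 6 hepatocyte markers were called lower in acute injury, and the part of hepatocytes in the falls of Plg and Klkb1 was not tested. Plat, the tissue plasminogen activator, went from a mean of 203 CPM in healthy LSECs to 22.9 CPM in acute injury and 35.9 CPM in fibrosis and to 977 CPM in cirrhosis (log2 fold change 2.21, called). Plau, the urokinase, was at 140, 29.0, 22.6 and 127 CPM in the same order. Among other inhibitors, Serpinb2 held 27 counts over all healthy libraries (mean 0.154 CPM) and was at a mean of 43.7 CPM in acute injury, and it passed the filter only through the acute libraries. Serpine2 (protease nexin 1) was called lower in acute injury (log2 -3.28). Reck, a membrane-anchored inhibitor of Mmp2, Mmp9 and Mmp14, was called lower in acute injury (log2 -1.84) and fibrosis (-2.21) and not in cirrhosis (-0.23). Of the 7 inducers and cell-surface anchors, 4 were called higher and 2 lower in acute injury, with the integrin subunits Itgav (log2 3.78) and Itgb1 (2.06) and the Mmp9-binding lipocalin Lcn2 (2.45) among the former.

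The interstitial matrix genes, whose proteins are substrates of these enzymes, were all 7 called lower in acute injury, with elastin (Eln) falling from a mean of 195 to 0.301 CPM. Eln held 7 to 17 counts in acute libraries and passed the filter on low counts only through the healthy ones, so its call adds no support. In fibrosis 1 was called higher, Col1a1 (log2 2.28), and 5 lower. In cirrhosis 5 were called higher, among them Col3a1 (log2 2.08), Col1a1 (2.03) and Col5a2 (1.62), while Eln (0.18) and Fn1 (0.66) were not called. The basement membrane genes were mixed, with 3 of 9 called higher in acute injury, led by the nidogens Nid2 (log2 2.77) and Nid1 (2.13), and 4 lower, led by the laminin chains Lamb2 (-3.78) and Lama5 (-3.60).

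Of 11 AP-1 and Ets factors tested, 7 were called lower and 1 higher in acute injury. Fos fell from a mean of 2339 to 7.53 CPM, Fosb from 10958 to 14.6 CPM and Junb from 6142 to 190 CPM, while Fosl1 (Fra-1) rose from 83.9 to 400 CPM (log2 2.37, called). Fosl1 was at 354 CPM in fibrosis and at 50.7 CPM in cirrhosis, where it was not called against healthy (log2 -0.60). It was thus high in the same 2 groups as Mmp3, Mmp10 and Mmp13, among many genes that were, and no link between them was tested.

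Over the 22 libraries of the CCl4 model, Mmp3, Mmp10 and Mmp13 were most like one another in log2 CPM, with a Pearson r of 0.997 between Mmp3 and Mmp10 and of 0.993 between Mmp3 and Mmp13. The next gene was Mmd for Mmp3 (0.989). Between 1102 and 1174 of 13810 genes had an r above 0.9 with each of these 3, which follow the separation of acute and fibrosis libraries from the rest. Fewer genes resembled the other members, 71 for Mmp2 (first Plxnb1, 0.967, Col6a2, 0.967, and Bgn, 0.962), 18 for Timp1 (first Spsb1, 0.948), 6 for Mmp12 (first Arpc5, 0.926, Mitf, 0.919, and Tnip3, 0.912) and 0 for Mmp9, whose nearest gene was Tmem8a (0.879). Timp2 (first Itgb4, 0.971), Timp3 (first Gja4, 0.975) and Mmp14 (first Rab13, 0.963) had 399, 524 and 688 such genes. The points share the group structure and the scaling, and these values are a description.

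In the TAA experiment the group labelled TAA control had 1 member higher and 5 lower than the group labelled control, of 7 tested, against 12.7% and 14.9% of the 14376 genes tested. Mmp2 was at 96.7, 168, 66.4, 62.4 and 85 CPM in the libraries labelled control (replicates 1 to 5) and at 6.52, 6.08, 3, 5.57 and 4.94 CPM in those labelled TAA control (replicates 10, 12, 13, 14 and 15), a log2 difference of -4.15 (SE 0.361, adjusted p = 1.98e-05). Mmp9 ran the other way, at 0.423, 1.05, 1.89, 0.916 and 1.22 CPM against 6.62, 7.84, 11.9, 13.4 and 10.9 CPM (3.27, SE 0.386, adjusted p = 0.000106). For both gelatinases no library of 1 group reached the other group.

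**Figure D5:**
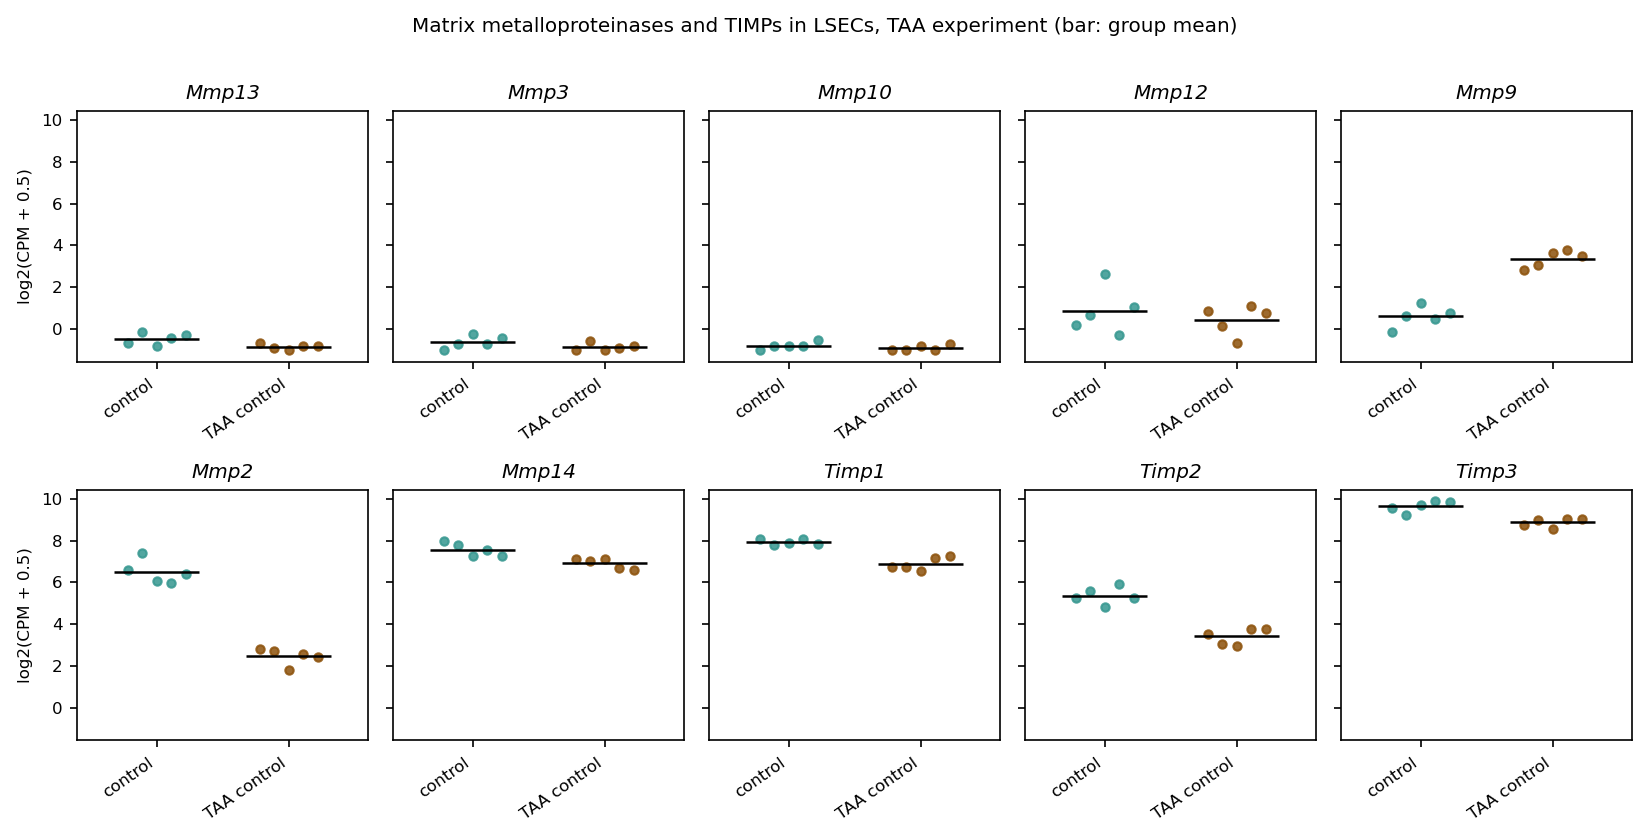
Each panel shows 1 gene, with the level in log2(CPM + 0.5) on a vertical axis shared by all panels and the groups labelled control and TAA control on the horizontal axis. Points are libraries and bars are group means. Mmp2 and the TIMPs were higher in the group labelled control and Mmp9 in the group labelled TAA control, and Mmp13, Mmp3 and Mmp10 were near 0 CPM, which is -1 on this scale.

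The TIMPs were all lower in the group labelled TAA control. Timp2 was at 37.4, 48.2, 28.1, 59.7 and 38.0 CPM against 11.1, 7.91, 7.21, 13 and 13.3 CPM (log2 -2.03, SE 0.24, adjusted p = 0.000108), and Timp1 at 272, 219, 235, 272 and 227 CPM against 107, 106, 91.7, 144 and 152 CPM (log2 -1.05, SE 0.144, adjusted p = 0.000233). Timp3 was at 760, 593, 835, 930 and 906 CPM against 426, 508, 377, 520 and 514 CPM (log2 -0.77, SE 0.137, adjusted p = 0.00103). These 3 genes did not overlap between the groups, and the share of all genes that separated in this way was not counted. Mmp14 was at 255, 218, 151, 183 and 154 CPM against 138, 130, 138, 103 and 96.2 CPM (log2 -0.66, SE 0.162, adjusted p = 0.0063), and its fold change was under 1.5 without control replicate 1 (log2 -0.55) or TAA control replicate 15 (log2 -0.58).

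Mmp12 did not pass the test in this experiment, with 0.635, 1.12, 5.70, 0.317 and 1.58 CPM against 1.32, 0.601, 0.132, 1.66 and 1.24 CPM (log2 -0.68, SE 0.827, adjusted p = 0.52). Mmp3, Mmp10 and Mmp13 did not pass the filter on low counts and held at most 0.421 CPM in any library of either group. Stellate cell and fibroblast markers summed to 2108 to 5246 CPM in the group labelled control and 345 to 539 CPM in the group labelled TAA control, and 8 of the 10 tested were called lower in the latter, while Lrat (log2 -0.23) and Lum (-0.70) were not called. All 7 interstitial matrix genes were called lower there too. LSEC markers summed to 21660 to 26866 CPM and 25983 to 34386 CPM. The 6 T, B and NK cell markers summed to means of 20.3 and 80.5 CPM. Of these, 3 were tested, and 2 were called higher and 0 lower in the group labelled TAA control. Nkg7 was at means of 1.78 and 22.7 CPM and Klrb1a at 4.79 and 50.6 CPM. The other T, B and NK cell markers together had a lower mean in the group labelled TAA control. The part of these cells in the differences of Mmp2, Mmp9 and the TIMPs was not tested. Replicates 14 and 15 labelled TAA control resembled each other most, and averaging them left the number of members called at 6.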

How the data were processed

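The authors prepared strand-specific poly(A) libraries, trimmed the reads, aligned them with STAR to the rat assembly Rnor_6.0 and ran RSEM for gene quantities, per the labels and the study's methods, and versions of these tools are not given in the sources used here. The deposited values are RSEM expected counts (estimates, which may hold fractions) for 32623 genes in each of 32 libraries, not normalized. RSEM divides reads that fit several genes by its own estimate, which makes near-identical genes less certain.

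Expected counts were rounded to whole numbers and genes filtered with filterByExpr. TMM factors and limma-voom (limma 3.58.1, edgeR 4.0.16, DESeq2 1.42.0, R 4.3.3) were applied to the libraries of the 2 groups compared, without covariates, with Benjamini-Hochberg adjustment over all genes tested. Adjusted p-values are from this fit unless edgeR or DESeq2 is named. Genes were called at an adjusted p under 0.05 and a fold change above 1.5. CPM used TMM factors within the 22 CCl4 or the 10 TAA libraries, and log2 CPM a pseudocount of 0.5. The tests across genes were tested on simulated data with known changes. In these simulated data far fewer genes changed than were called here, and rises and falls were balanced. They do not show how the scaling behaves when most genes are called. Figures used Python 3.11.15 and matplotlib 3.10.9.

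Groups came from the sample labels, and that of cirrhosis also from the series description. The members, the gene lists and the marker lists were chosen with earlier results of these data known. From the lists, at most 4 called genes a list were named by the size of their log2 fold change, beside those not called, and for each member the 3 genes with the highest Pearson r over the 22 CCl4 libraries were found, of which those nearest are named. Mmp1b, Fosl1, single marker genes and genes named to say how a list split were chosen after their values were seen. Alternatives were edgeR, DESeq2, other filters, other scalings, weights per library, 1 fit over the CCl4 groups, a block for the replicate number, and each library left out in turn. Replicates 14 and 15 labelled TAA control had a chi-square per degree of freedom of 2.96, against 25.9 or more for other pairs of that group, and were kept as 2 libraries. A gene of the inhibitor list is not reported here. Genome positions of the files' own assembly were not used here, and promoter windows are from RefSeq (GRCr8).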

Additional observations from a re-analysis of the deposited data

Results flagged for a closer look

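Mmp2 and Timp2 changed in opposite directions at different stages, and the difference between the stages was itself tested by limma-voom. Mmp2 was lower than healthy in acute injury and fibrosis and higher in cirrhosis, and cirrhosis exceeded acute injury by a log2 difference of 4.76 (adjusted p = 1.37e-06) and fibrosis by 2.34 (adjusted p = 4.04e-05). Timp2 took the same course, with log2 differences of 3.64 (adjusted p = 5.53e-09) and 2.57 (adjusted p = 1.23e-08). Every cirrhotic library lay above every acute and fibrosis library for both genes, and the share of all genes that separated in this way was not counted. These stage differences share the cirrhotic libraries and move with the LSEC and stellate cell markers given above, whose part was not tested.

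Mmp3 in healthy replicate 3 lay apart from the other healthy libraries, at 0.287 CPM against 0 to 0.0778 CPM. At the counts behind it (at most 7 in a healthy library) the level remained far under that of any acute or fibrosis library. It was the 1 library that stood out in 60 groups of libraries looked at, where chance gives about 1 in 20, or 3.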

How the results depend on the processing

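The number of members called stayed within 1.5 times the reported number in 155 of 156 recomputations. The exception was cirrhosis against healthy with no filter on low counts, where 5 members were called in place of 3 because Mmp10 (log2 fold change 2.18) and Mmp13 (2.39) were then tested. This measure takes no account of direction and includes its limit. With weights per library, cirrhosis against healthy had 1 member higher and 1 lower in place of 3 higher and 0 lower. Fibrosis against acute injury then had 6 members called in place of 4. Both lay at the limit of 1.5 times. With 1 library left out, 9 to 10 members were called in acute injury, 7 to 9 in fibrosis and 3 to 4 in cirrhosis against healthy, 3 to 4 between fibrosis and acute injury, 9 to 9 in both comparisons of cirrhosis with earlier stages, and 5 to 6 in the TAA experiment. Of 1302 recomputed member values, 1247 kept their direction and their side of the threshold, 24 turned sign, 21 gained a call and 10 lost it. None of the values that turned sign was called in either setting. In cirrhosis against healthy, Timp3 turned to 0.004 with no filter, 0.071 with a filter on CPM above 1, 0.32 without TMM and 0.117 with upper-quartile scaling, and ranged from -0.126 to 0.103 with 1 library left out. Mmp14 turned to 0.022 with the CPM filter, 0.269 without TMM and 0.067 with upper-quartile scaling. Between fibrosis and acute injury Mmp9 turned to -0.012 with edgeR and -0.005 with DESeq2, and with 1 library left out Mmp9 ranged from -0.177 to 0.525 and Mmp14 from -0.019 to 0.208. Between cirrhosis and fibrosis Mmp12 turned to 0.016 with upper-quartile scaling and 0.104 with weights per library, and ranged from -0.536 to 0.183 with 1 library left out. The cause was not tested.

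Without TMM the median log2 fold change over all genes moved from -0.09 to 0.32 in acute injury, from -0.03 to 0.37 in fibrosis and from 0.07 to 0.42 in cirrhosis against healthy. The share of called genes that were higher then moved from 50.3% to 60.9% in fibrosis and from 52.2% to 71.3% in cirrhosis. Upper-quartile scaling moved the median in cirrhosis against healthy to 0.21 and against acute injury from 0.04 to 0.22. Between fibrosis and acute injury 1529 genes were called, against 746 in 1 fit over the CCl4 groups, 2346 with weights per library, 2826 with no fold threshold and 1011 without acute replicate 1. In the TAA experiment 3970 genes were called, against 7139 with no fold threshold.

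The healthy, acute and cirrhotic groups share replicate numbers. Deviations of same-numbered libraries correlated with r from -0.242 to 0.29 (cirrhosis and healthy), 0.031 to 0.187 (acute and healthy) and -0.089 to 0.088 (cirrhosis and acute). For cirrhosis and healthy, r was positive in replicates 1 to 3 and negative in 4 to 6. Differently numbered libraries were not compared, so whether the numbers pair the rats is not settled. The fit with the replicate number as a block used only libraries whose number both groups hold, which with acute injury were replicates 1 to 4. In it Mmp9 was called lower in cirrhosis against healthy (-1.894, adjusted p = 0.0368). Mmp12 was called lower in cirrhosis against acute injury (-1.319, adjusted p = 0.000131), where the block and the smaller set of libraries cannot be told apart. No other call changed. In the CCl4 model depth chiefly limits Mmp3, Mmp10 and Mmp13 where they are near 0, with 4 to 72 counts summed over the 6 healthy or cirrhotic libraries. In the TAA experiment these genes held 5 to 36 counts summed over a group. Counts were also low there for Mmp9 in the group labelled control (12 to 52 in a library). Mmp12 held as few as 4 counts in a library labelled TAA control.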
